A study of Rattus norvegicus with 14 samples.

Results

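The neurotrophins and their receptors were examined as 7 genes of the rat motor cortex: the ligands Bdnf, Ntf3 and Ntf4 and the receptors Ntrk2, Ntrk3, Ngfr and Sort1. Members were chosen by name, as the rows of the deposited table whose only gene symbol is one of these names, and each had 1 probe set. They are 7 of 22093 genes with such a row. RNA was measured on 14 Affymetrix whole-transcript arrays of motor cortex from male rats with a spinal cord injury. Rats of the MSC group (7 arrays) received MSC through the femoral vein 24 hours after the injury, and rats of the vehicle group (7 arrays) received vehicle by the same route at the same time. Tissue was taken at day 3 after the infusion, and rats of both groups had cyclosporine A, which suppresses the immune system, daily. MSC usually stands for mesenchymal stem or stromal cells, and their source and the age of the rats were not stated in the labels. All animals were injured and immunosuppressed, so the comparison concerns the infused product only. Whether each array came from its own animal is not stated, so every p-value refers to the spread among these arrays, part of which may be technical. The title, source name and treatment of MSC replicate 7 say MSC, while its description says vehicle, and it was kept as MSC.

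Neurotrophins are small secreted dimers that neurons and other cells make as longer precursors, which proteases cut to the mature factor. Mature BDNF and NT-4 act through the receptor tyrosine kinase TrkB (Ntrk2) and NT-3 acts mainly through TrkC (Ntrk3), where they promote neuronal survival, dendrite growth and synaptic change. The p75 receptor (Ngfr) binds all neurotrophins, and with sortilin (Sort1) it forms a receptor for the uncut precursors that can signal cell death. In cortex, BDNF is made by excitatory neurons in response to activity, and TrkB and TrkC are made both as full-length kinases and as truncated forms without the kinase.

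On the RefSeq assembly GRCr8 the ligands lie at chr3:116619633-116670212 (Bdnf), chr4:160601161-160670623 (Ntf3) and chr1:105030035-105032866 (Ntf4). The receptors lie at chr17:5560558-5875899 (Ntrk2), chr1:141526192-141913575 (Ntrk3), chr10:81012077-81030305 (Ngfr) and chr2:198609466-198690481 (Sort1). Each probe set summarises its gene into 1 value, so full-length and truncated receptors, and transcripts from different starts, are not separated in these values.

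Bdnf is shown with a promoter sequence because it is transcribed from several alternative starts, of which some are known to respond to neuronal activity through the factor CREB, and because its array values are set beside activity-responsive genes further on. RefSeq's GRCr8 promoter windows, which span 250 bases before to 50 bases after a start, held 6 windows for Bdnf, 3 for Ntf3 and 1 each for Ntf4 and Sort1, or 11 windows of 4 of the 7 genes. They were searched on both strands for TGACG, the core of the CREB binding motif. The core was found in 1 of the 11 windows, a Bdnf window, against 21.2% of all 33469 windows. The 11 windows are not all distinct sequences. Ntf3 windows chr4:160670574-160670873 and chr4:160670573-160670872 overlap almost fully, and Bdnf windows chr3:116639552-116639851 and chr3:116639608-116639907 overlap in large part. The full palindrome TGACGTCA was found in 0 of the 11 and in 1.83% of all windows. The window with the match is printed 5′ to 3′ on the plus strand, with the core, which reads CGTCA on this strand, in capitals. A match describes the letters only, and the array value does not show which start was used.
Bdnf, chr3:116637608-116637907: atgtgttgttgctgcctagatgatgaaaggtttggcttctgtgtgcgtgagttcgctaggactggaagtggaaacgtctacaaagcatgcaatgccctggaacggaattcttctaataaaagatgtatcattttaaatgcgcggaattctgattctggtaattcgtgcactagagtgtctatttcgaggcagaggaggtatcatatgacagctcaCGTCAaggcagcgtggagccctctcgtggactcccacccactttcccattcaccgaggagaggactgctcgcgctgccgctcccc

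Values are the authors' RMA log2 expression values, in which 1 unit is a doubling, and all differences are MSC minus vehicle. Array medians lay between 5.79 and 5.92, and the 1153 probe sets named as negative controls had a median of 6.46. Every value of Bdnf, Ntf3, Ntf4 and Ngfr lay below that control median, so these 4 genes are not shown to be above background on these arrays. Ntrk2, Ntrk3 and Sort1 lay far above it on every array. Any pair of arrays correlated at 0.989 to 0.997 across probe sets. Cortical markers were bright, such as Camk2a of excitatory neurons at 18.1, Slc1a2 of astrocytes at 17.2 and Gad1 of inhibitory neurons at 13.4. Single arrays stood apart in their content of neighbouring tissue. The mean of 5 choroid plexus markers was 10.4 on MSC replicate 4 and 10.3 on vehicle replicate 2, and at most 6.78 elsewhere. That of 6 meningeal fibroblast markers was 8.48 on MSC replicate 2 and 8.21 on vehicle replicate 2, and at most 7.52 elsewhere. That of 6 striatal neuron markers reached 8.68 on MSC replicate 6. Differences of Ntf3, Ntrk2 and Ntrk3 are given with all arrays and without some of these arrays, and the part of the carried tissue in them was not tested. In bulk tissue, fewer cells of a type and less RNA per cell cannot be told apart.

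The question was whether ligands or receptors of the neurotrophin family differed between the groups. No gene of the 7 was called: 0 passed an adjusted p of 0.05 in limma, as did 0% of all 68842 probe sets tested, and each of the 7 had an adjusted p of 0.9999. A missed threshold does not show that the genes were alike in both groups, and the intervals below bound the differences. The largest difference was that of Ntrk3, with a mean 0.23 log2 units higher in the MSC group, followed by Ntf3 (0.17) and Ntrk2 (0.12). At an unadjusted p below 0.05 in limma stood 1 of the 7 genes, Ntrk3, which was higher in MSC. Over all probe sets, 1% were higher and 2.41% were lower in MSC at that unadjusted level. For all 7 genes the values of the groups overlapped.

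**Figure D1:**
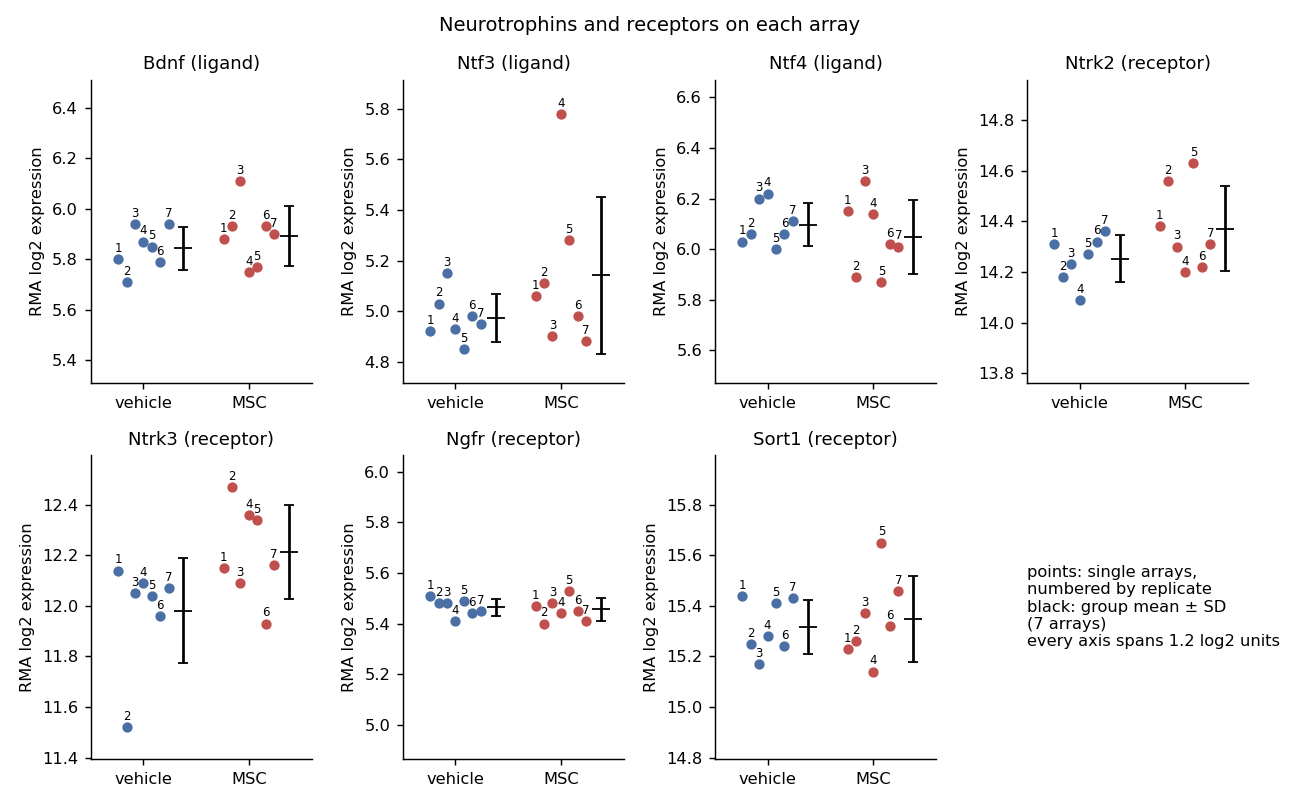
RMA log2 expression of the 7 genes on each array, by group; points are single arrays numbered by replicate, black bars are the mean ± SD over 7 arrays, and every vertical axis spans the same number of log2 units. The groups overlap for every gene, MSC replicate 4 stands high for Ntf3 (5.78), vehicle replicate 2 stands low for Ntrk3 (11.52), and Ngfr hardly varies.

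Among the ligands, Bdnf, the most abundant neurotrophin of the adult cortex, had values close to the array median and below the negative controls. In the MSC group it ran from 5.75 through a median of 5.90 to 6.11, and in the vehicle group from 5.71 through 5.85 to 5.94. The groups covered almost the same range, with only MSC replicate 3 above all vehicle arrays. The means were 5.89 ± 0.12 and 5.84 ± 0.085 (SD, n = 7 each), a difference of 0.049 ± 0.061 (SE). The exact permutation p was 0.404 (two-sided, over all 3432 assignments of 7 arrays to each group), and 5 of 7 MSC arrays lay above the vehicle mean. The 95% interval of the difference ran from -0.080 to 0.18 log2 units. No fold is given for a probe set not shown to be above background, and a narrow interval there bounds the array value and not necessarily the transcript.

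Ntf3, which encodes NT-3, had the widest spread of any ligand and lay below the median of every array. MSC arrays ran from 4.88 through a median of 5.06 to 5.78 and vehicle arrays from 4.85 through 4.95 to 5.15. The groups overlapped, and the top of the range was held by MSC replicate 4, followed by MSC replicate 5 at 5.28. The means of 5.14 ± 0.31 and 4.97 ± 0.096 (SD, n = 7 each) differed by 0.17 ± 0.11 (SE), with an exact two-sided permutation p of 0.194. Without MSC replicate 4, which carried the choroid plexus markers at 10.4, the difference was 0.063. Vehicle replicate 2, with these markers at 10.3, had Ntf3 at 5.03, inside the range of the other vehicle arrays. Without both arrays Ntf3 differed by 0.072 ± 0.076 (SE).

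Ntf4, which encodes NT-4, the other TrkB ligand, had a slightly lower mean in the MSC group. It ran from 5.87 through 6.02 to 6.27 in MSC and from 6.0 through 6.06 to 6.22 in vehicle arrays. The MSC arrays lay on both sides of the vehicle range, with replicates 2 and 5 below it and replicate 3 above it. The difference of the means, 6.05 ± 0.15 and 6.10 ± 0.084 (SD, n = 7 each), was -0.048 ± 0.067 (SE), with an exact two-sided permutation p of 0.459. Over the 3 ligands, the 95% intervals reached from -0.19 (Ntf4) to 0.41 log2 units (Ntf3).

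Among the receptors, Ntrk2, the TrkB gene of neurons and astrocytes, lay far above the array medians. MSC arrays ran from 14.20 through a median of 14.31 to 14.63 and vehicle arrays from 14.09 through 14.27 to 14.36. The groups overlapped, with MSC replicates 1, 2 and 5 above all vehicle arrays. The means of 14.37 ± 0.17 and 14.25 ± 0.093 (SD, n = 7 each) differed by 0.12 ± 0.073 (SE), with an exact two-sided permutation p of 0.132. The estimate ran from 0.076 without MSC replicate 5 to 0.15 without MSC replicate 4, and the full interval reached from 0.976-fold to 1.21-fold. It was 0.089 without MSC replicate 2 and 0.15 without MSC replicate 6. Without MSC replicates 4 and 6 and vehicle replicate 2 together it was 0.17 ± 0.078 (SE).

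Ntrk3, the TrkC gene, stood closest to a difference. Its MSC values ran from 11.93 through a median of 12.15 to 12.47, and its vehicle values from 11.52 through 12.05 to 12.14. The groups overlapped, although 5 of 7 MSC arrays lay above the highest vehicle array and 6 of 7 above the vehicle mean. MSC replicate 6 lay below most vehicle arrays. The means of 12.21 ± 0.19 and 11.98 ± 0.21 (SD, n = 7 each) differed by 0.23 ± 0.100 (SE), or 1.17-fold with a 95% interval of 1.01 to 1.36. The exact permutation p was 0.041 (two-sided, not adjusted for the 7 genes), and the limma adjusted p was 0.9999. Vehicle replicate 2 stood far below the other vehicle arrays, at 11.52 against 11.96 for the next, and without it the difference was 0.16 (unadjusted p = 0.070 in limma, not an exact test). Without MSC replicate 6, the array high in striatal markers, the Ntrk3 difference was 0.28 ± 0.097 (SE). Leaving out MSC replicate 2, high in meningeal markers, gave 0.19 ± 0.099. Without MSC replicates 4 and 6 and vehicle replicate 2 together it was 0.18 ± 0.074. Without both arrays high in choroid plexus markers, a setting added after seeing the data, it was 0.13 ± 0.082. The sign was the same in each of these settings, and 0 of them gave a call. Of the arrays high in meningeal markers, MSC replicate 2 had the highest and vehicle replicate 2 the lowest Ntrk3 value of all 14.

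In both groups, replicates 6 and 7 differed from replicates 1 to 5 in the added bacterial control RNAs, with dap at 7.45 to 8.12 against 8.35 to 9.92, although no label names a batch. Within replicates 1 to 5 the differences were 0.31 ± 0.12 (SE) for Ntrk3, 0.20 ± 0.090 for Ntrk2 and 0.25 ± 0.14 for Ntf3. In replicates 6 and 7 alone, where each group has 2 arrays, the same 3 genes gave 0.027 ± 0.13, -0.077 ± 0.11 and -0.034 ± 0.11. For these 3 genes the differences were larger in replicates 1 to 5, and the difference between the sets was not tested. Vehicle replicate 2, low for Ntrk3 (11.52), and MSC replicate 4, high for Ntf3 (5.78), are both among replicates 1 to 5. The part of these arrays in the larger differences was not tested. For the other 4 genes the values within both sets had the sign of the full comparison.

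Ngfr, the p75 gene, was below the median of every array and varied least of the 7. MSC arrays ran from 5.40 through 5.45 to 5.53 and vehicle arrays from 5.41 through 5.48 to 5.51. The ranges coincided, and the means of 5.46 ± 0.044 and 5.47 ± 0.033 (SD, n = 7 each) differed by -0.0092 ± 0.041 (SE), with an exact two-sided permutation p of 0.672. The sign turned under other scalings, to 0.0091 after repeated quantile normalization and 0.0068 after median centring. In the adult forebrain p75 is best known from cholinergic neurons of the basal forebrain. The 5 cholinergic markers were below the negative control median as well, with means from 4.63 (Slc18a3) to 5.90 (Lhx8). The mean of the list was 5.17 to 5.35 on MSC and 5.18 to 5.29 on vehicle arrays. At this level an array shows neither presence nor absence of the transcript.

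Sort1, which encodes sortilin, a sorting receptor of neurons that also carries the BDNF precursor within the cell, also lay far above the array medians. It ran from 15.14 through 15.32 to 15.65 in MSC and from 15.17 through 15.28 to 15.44 in vehicle arrays. The groups overlapped, with MSC replicate 4 lowest and MSC replicate 5 highest of all arrays. The means of 15.35 ± 0.17 and 15.32 ± 0.11 (SD, n = 7 each) differed by 0.028 ± 0.076 (SE), with an exact two-sided permutation p of 0.726. A single array set this sign, since the difference was -0.023 once MSC replicate 5 was left out.

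**Figure D2:**
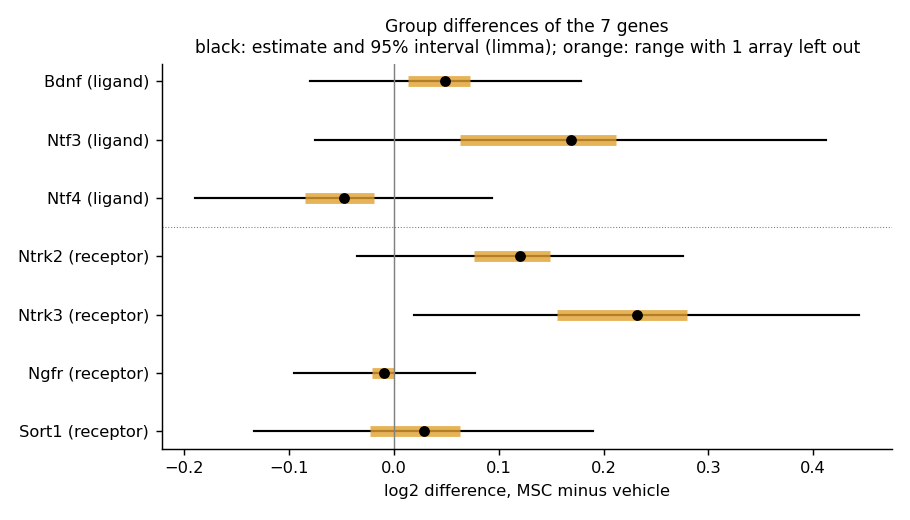
Log2 differences, MSC minus vehicle, of the 7 genes; black points and lines are the limma estimate and its 95% interval, and orange bars the range of estimates with 1 array left out. Only the Ntrk3 interval lies above 0 (0.019 to 0.44), before adjustment over all probe sets, and the orange bars of Ngfr and Sort1 reach both sides of 0.

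Set against each other, the array values of ligands and receptors did not separate. All 3 ligands and the receptor Ngfr lay below the negative control median. These values therefore cannot decide whether the transcripts of the classes separate. Means were higher in MSC for 2 of the 3 ligands, whose median difference was 0.049, and for 3 of the 4 receptors, whose median was 0.074, while over all 22093 genes 47.6% were higher and the median was -0.0038. The receptor median exceeded the ligand median by 0.025, and leaving out 1 array could turn the order. The gap was -0.043 without MSC replicate 5, -0.0042 without vehicle replicate 3 and 0.065 without MSC replicate 3. Averaged over the genes of a class as deviations from the vehicle mean, the ligands stood at 0.057 ± 0.100 (SD) on MSC arrays and ran from -0.042 to 0.25. The receptors stood at 0.093 ± 0.10 on MSC arrays and ran from -0.022 to 0.28. Vehicle arrays ran from -0.072 to 0.13 for the ligands and from -0.15 to 0.095 for the receptors, so both classes overlapped between the groups. Comparisons between the classes concern differences only, since levels of different probe sets are not on a common scale. A filter at the array median removes Bdnf, Ntf3 and Ngfr and leaves Ntf4 as the only ligand, although Ntf4 too lies below the negative control median.

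**Figure D3:**
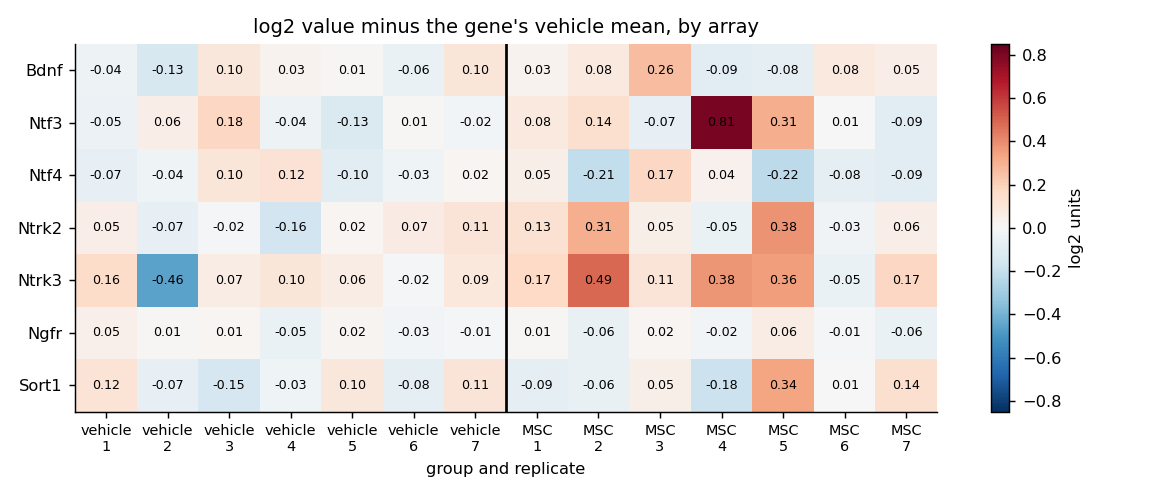
Each cell gives a gene's log2 value on 1 array minus that gene's vehicle mean, with vehicle arrays left and MSC arrays right of the line. MSC replicate 4 is high for Ntf3 (0.81) and Ntrk3 (0.38), MSC replicate 5 for Ntrk2, Ntrk3, Sort1 and Ntf3, and vehicle replicate 2 is low for Ntrk3 (-0.46).

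Across the 14 arrays the 7 genes varied largely apart from each other. Of their 21 pairs, 0 passed an adjusted p of 0.05 for Pearson's r or Spearman's rho (permutation with 100000 resamples, adjusted over the 21 pairs), and 2 had an unadjusted p below 0.05 for r. Ntf4 and its receptor Ntrk2 varied in opposite directions, with r = -0.66 (permutation p = 0.0092, adjusted p = 0.193) and rho = -0.44 (permutation p = 0.118, adjusted p = 0.621). Within replicates 1 to 5 that r was -0.73, and without the 2 arrays farthest from the Ntf4 median it was -0.63. Every Ntf4 value lay below the negative control median, so this relation concerns an array value not shown to be above background. Nor was it particular to Ntrk2. Over the 14 arrays Ntf4 gave r = -0.67 with excitatory and -0.68 with microglia marker means (adjusted p = 0.191 each, by permutation). With the choroid plexus and cholinergic markers its r was 0.17 and 0.39. Ntrk2 and Ntrk3 varied together, with r = 0.57 (permutation p = 0.039, adjusted p = 0.370) and rho = 0.49 (permutation p = 0.081, adjusted p = 0.568). Within replicates 1 to 5 their r was 0.58, but without the 2 arrays farthest from the Ntrk2 median it was 0.22. Leaving out the arrays at the ends of a range can lower r by itself. The drop therefore does not show what the relation rests on. Ntf3 and Sort1 gave r = -0.33 (permutation p = 0.229, adjusted p = 0.534) and rho = -0.56 (permutation p = 0.043, adjusted p = 0.568). Without the 2 arrays farthest from the Ntf3 median their r was -0.84 (permutation p = 6.3e-04, adjusted p = 0.013).

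Each gene was also set against the mean of 12 lists of cell type markers, 84 relations in all, of which 0 passed after adjustment for r or rho over the 14 arrays and 11 had an unadjusted permutation p below 0.05 for r. The closest was Sort1 with the inhibitory neuron markers, which include Gad1 and Slc32a1, with r = 0.78 (permutation p = 9.3e-04, adjusted p = 0.078) and rho = 0.81 (permutation p = 7.4e-04, adjusted p = 0.062). Within replicates 1 to 5 that r was 0.83 (adjusted p = 0.209, by permutation) and rho was 0.93 (permutation p = 3.7e-04, adjusted p = 0.031), the only value past the threshold in that subset. That r was 0.67 without the 2 arrays farthest from the median of the list. Ntrk2 followed the excitatory neuron markers with r = 0.69 (permutation p = 0.0074, adjusted p = 0.191) and rho = 0.49 (permutation p = 0.075, adjusted p = 0.451). Its r was 0.75 within replicates 1 to 5 and 0.25 without the 2 arrays farthest from the list's median, a narrower range that can lower r by itself. With the astrocyte markers Ntrk2 gave r = 0.48 (permutation p = 0.080, adjusted p = 0.353) and rho = 0.25 (permutation p = 0.383, adjusted p = 0.681), r = 0.52 within replicates 1 to 5 and 0.40 without the 2 farthest arrays. The group means of the excitatory list were 12.06 in MSC and 11.99 in vehicle arrays, and those of the inhibitory list 10.14 and 10.12. Other lists differed more, with striatal markers 0.27 higher in MSC (5 of 6 markers higher) and endothelial markers 0.16 lower (6 of 6 lower), and their part in the values of the 7 genes was not tested. The striatal mean was 8.68 on MSC replicate 6 and at most 7.99 on every other array, so that difference leans on 1 array. For the endothelial list, vehicle replicate 2 was the highest array (9.30) and MSC replicate 4 the lowest (8.53). Both are the arrays high in choroid plexus markers, and the endothelial difference without them was not computed.

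BDNF is itself a product of neuronal activity. The 7 genes were set against the mean of 16 activity and TrkB responsive genes, of which 7 had higher and 9 lower means in MSC, with a median of -0.031. This is a relation added after other values had been seen and adjusted over 7 relations. Bdnf was higher on arrays with a higher list mean by rank, with rho = 0.71 (permutation p = 0.0052, adjusted p = 0.036), while r = 0.61 did not pass (permutation p = 0.023, adjusted p = 0.080). Taken as deviations from the group means, r was 0.73 (permutation p = 0.0030, adjusted p = 0.010). Within replicates 1 to 5 it was 0.65 (permutation p = 0.051, adjusted p = 0.180). Without the 2 arrays farthest from the list's median it was 0.58 (permutation p = 0.044, adjusted p = 0.311), and without MSC replicate 4 it was 0.58 with rho = 0.66 (permutation p = 0.016, adjusted p = 0.115), so the direction held and the call did not. On vehicle replicate 7, the array highest in the list at 10.1, Bdnf was at 5.94, and on MSC replicate 4, the lowest at 8.82, it was at 5.75. All values of Bdnf, and of Ntf3 below, lay under the negative control median. Their relations to the list concern array values not shown to be above background, and not necessarily the transcripts.

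Ntf3 ran the other way, with r = -0.80 (permutation p = 0.0038, adjusted p = 0.027) and rho = -0.57 (permutation p = 0.037, adjusted p = 0.129). As deviations from the group means r was -0.79 (permutation p = 0.0025, adjusted p = 0.010). Both values rest on all 14 arrays. Without MSC replicate 4, r of the values themselves was -0.47 (permutation p = 0.105, adjusted p = 0.367). Without the 2 arrays farthest from the list's median it was -0.48 (permutation p = 0.112, adjusted p = 0.392), and within replicates 1 to 5 it was -0.86 (permutation p = 0.0095, adjusted p = 0.067). The other 5 genes gave r between -0.32 and 0.26, and 0 of them passed. Replicates 6 and 7 hold too few arrays for a value of their own.

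**Figure D4:**
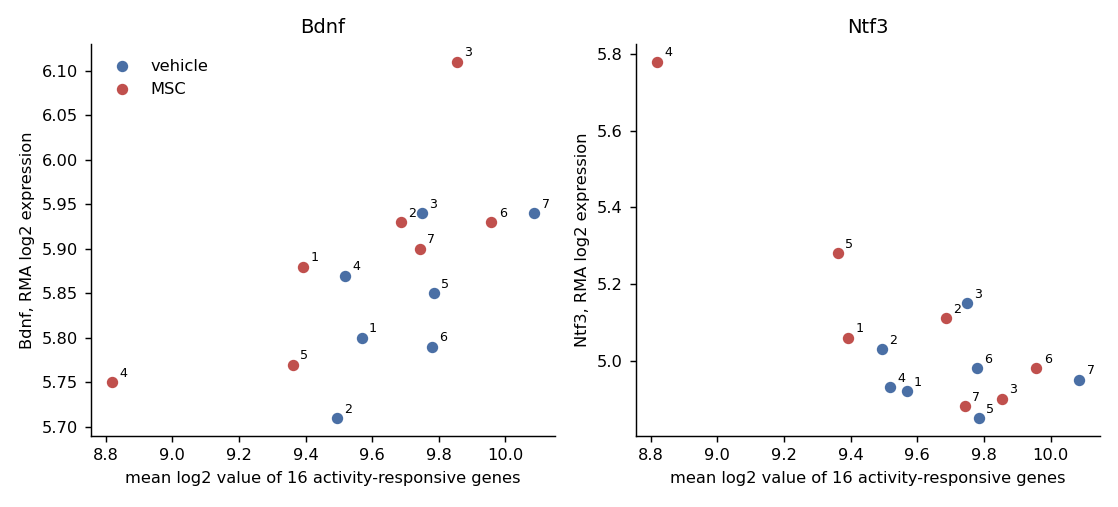
Bdnf (left) and Ntf3 (right) on each array, as RMA log2 expression, against the mean log2 value of 16 activity-responsive genes; points are arrays numbered by replicate. Bdnf is higher on arrays with higher activity genes by rank (rho = 0.71, with r = 0.61 not passing), a call that did not hold without MSC replicate 4. The slope of Ntf3 depends on MSC replicate 4 at the upper left. Both genes lie below the negative control median on every array.

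Genes around the receptors were taken from lists of the pathway, and 0 of the 100 measured genes passed in limma in either direction (background 0%). The counts and medians of the lists include some genes with means below the negative control median. Of 15 partners of p75 and sortilin, 8 had higher and 7 lower means in MSC, with a median of 0.040. The sortilin relatives Sorcs3 (0.28 ± 0.16, SE) and Sorcs1 (-0.21 ± 0.13) lay on opposite sides, and Lingo1, a p75 co-receptor in the inhibition of axon growth, differed by 0.17 ± 0.12. Sorcs1, Sorcs3 and, further on, Pik3ca have 2 probe sets each, of which only the brighter is given.

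Of 15 genes that cut or sort the precursors, 7 were higher and 8 lower, with a median of -0.0018. Plat, the tissue plasminogen activator whose product plasmin can cut the BDNF precursor, averaged 9.08 ± 0.46 on the MSC arrays against 9.55 ± 0.26 on the vehicle arrays (SD, n = 7 each). The difference was -0.47 ± 0.18 (SE; limma adjusted p = 0.9999). Of the 7 MSC arrays 6 lay below the vehicle mean. Furin, a protease that cuts the precursors inside the cell, differed by 0.10 ± 0.051 (SE), with 7 of 7 MSC arrays above the vehicle mean. Cadps2, a release factor of dense-core vesicles, differed by -0.22 ± 0.16.

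Of 31 adaptors and kinases downstream of the Trk receptors, 18 were higher and 13 lower, with a median of 0.011 and a range of -0.14 to 0.17. The docking proteins Frs2 (0.17 ± 0.089, SE) and Frs3 (0.086 ± 0.047), which couple Trk receptors to the Ras pathway, and the kinase subunit Pik3ca (-0.091 ± 0.062) had the smallest p. Frs3 averaged 6.07 on MSC and 5.99 on vehicle arrays, below the negative control median of 6.46, and is not shown to be above background. Of 10 genes of Trk trafficking and attenuation, 9 were higher, with a median of 0.036. Nedd4l, a ubiquitin ligase, differed by 0.20 ± 0.11 and Cbl, another, by 0.045 ± 0.050. Dusp6, a phosphatase of ERK that the pathway itself induces, was the lower gene at -0.26 ± 0.15.

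Of 13 regulators of Bdnf transcription, 7 were higher and 6 lower, with a median of 0.027. Npas4, an activity-induced factor that binds Bdnf promoters, differed by -0.50 ± 0.32 (SE), Mef2c by -0.15 ± 0.098 and Usf2 by -0.12 ± 0.081. In the list of 16 activity and TrkB responsive genes 7 were higher and 9 lower, with a median of -0.031. Of the 16 genes, 4 had an unadjusted p below 0.05 in limma, of which 3 were lower and 1 higher. Over all 68842 probe sets, 1% were higher and 2.41% lower in MSC at that level. The list was chosen with earlier results of these data known, so the count is no test of it. Its higher gene at that level was Nptx2, a secreted pentraxin of excitatory synapses that BDNF is known to induce. It averaged 9.14 ± 0.28 on the MSC arrays against 8.70 ± 0.40 on the vehicle arrays (SD, n = 7 each), a difference of 0.43 ± 0.17 (SE; limma adjusted p = 0.9999), with 7 of 7 MSC arrays above the vehicle mean. Fos (-1.07 ± 0.35), Junb (-0.56 ± 0.21) and Nr4a1 (-0.61 ± 0.25), activity-induced transcription factors, had lower means, and for each of them 6 of 7 MSC arrays fell short of the vehicle mean. The genes of each list were named by their p in these same arrays, so these counts of arrays restate that choice. The SDs of Fos, Junb and Nr4a1 were 0.92, 0.50 and 0.71 on MSC arrays against 0.48, 0.38 and 0.19 on vehicle arrays. MSC replicate 4 was the lowest array in the mean of the list, at 8.82. The differences of Fos, Junb and Nr4a1 without that array were not computed.

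**Figure D5:**
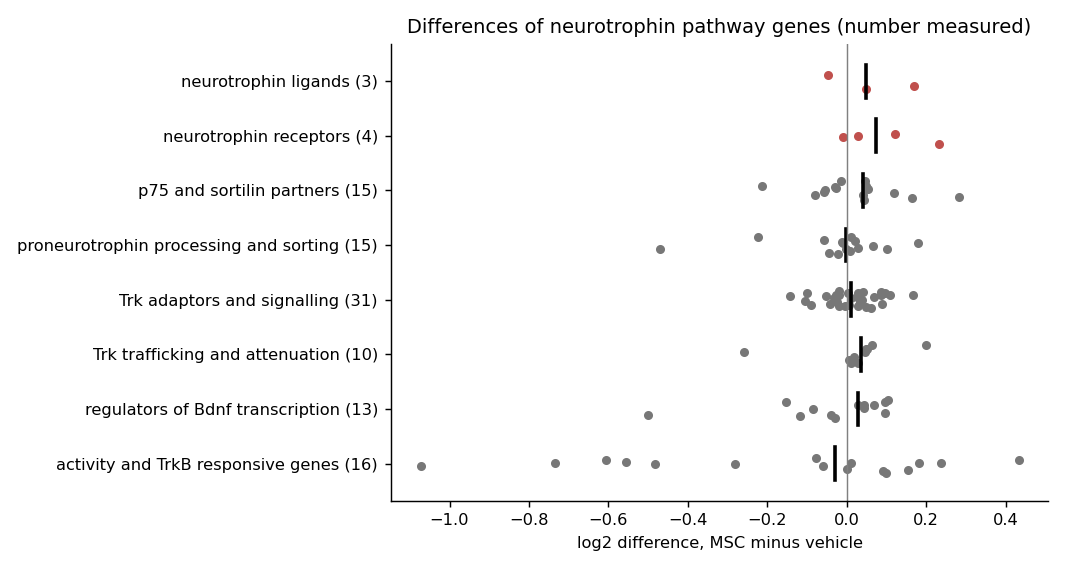
Log2 differences, MSC minus vehicle, of the neurotrophin ligands and receptors (red) and of the measured genes of 6 pathway lists (grey); each point is a gene, black bars are medians, and numbers in brackets count the genes. All medians lie between -0.031 and 0.074, and the widest spread is that of the activity and TrkB responsive genes.

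Some genes followed single members closely in their deviations from the group means over the 14 arrays, as a description over 22093 genes. Ntf3 was followed by Svep1 (r = 0.95), Vav3 (0.93) and Smpd2 (0.92), and Ntf4 by Adam7 (0.96), LOC100909803 (0.95) and Apobr (0.95). The most alike to Ntrk2 were 6430548M08Rikl (0.92), Ntn1, which encodes the guidance factor netrin-1 (0.89), and Trim9 (0.89). Ntrk3 was matched by Nrf1 (0.89), Tmcc3 (0.87) and Slit3 (0.86), and Sort1 by Gria3, an AMPA receptor subunit (0.92), Fam98a (0.92) and Drp2 (0.90). Bdnf was followed by LOC102553046 (0.88), Plin3-ps1 (0.88) and 1700129C05Rikl (0.86), and Ngfr by Rtn4ip1 (0.87), Neurog2 (0.87) and Pdxk (0.82). None of these lists held another neurotrophin or receptor, and no test was made of these correlations. MSC replicate 4 stood 0.81 above the Ntf3 vehicle mean, against 0.31 for MSC replicate 5, the next. The part of that array in the Ntf3 matches was not tested. Bdnf, Ntf3, Ntf4 and Ngfr lay below the negative control median, so their matches concern array values not shown to be above background.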

How the data were processed

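The values are log2 expression as the authors deposited it. The submitters' processing notes name RMA and Affymetrix Expression Console, and no version, setting or genome build was found in the labels or headers. RMA subtracts background, equalises signal distributions and pulls changes of dim probe sets towards 0. Of 70580 rows, 1738 control probe sets (AFFX, ERCC and RG identifiers) were left out and 68842 were tested. Symbols come from the platform annotation and were updated through RefSeq's GRCr8 table. A gene with several rows is represented by the one with the highest mean over the 14 arrays. A linear model without covariates (lmFit and eBayes of limma 3.58.1, run in R 4.3.3) gave the group differences, p-values were adjusted by Benjamini-Hochberg across the 68842 probe sets, and calls were made at 0.05. The fit was tested on simulated data. Two-sided exact permutation tests covered single genes, and correlations used 100000 resamples. The number of arrays limits the precision.

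Members, lists, alternatives and tests were chosen with earlier results of these data known. Of 112 pathway list entries 100 were measured, and of 72 cell type markers 69; the rest, with all 2 entries of the list of other family members, were not analysed here. Named are the 7 members, the 3 pathway genes per list with the smallest p, every list gene past the threshold, and the 3 genes most alike to each member. Nr4a1 was named after its values were seen, to complete a count. Alternatives covered scaling, dim and control probe sets, array weights, spike-in batch, replicate block, the variance model, the label of MSC replicate 7 and leaving out arrays.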

Additional observations from a re-analysis of the deposited data

Results flagged for a closer look

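Ntrk3 on vehicle replicate 2 was far from the other vehicle arrays, at 11.52 against 11.96 for the next lowest. The gap was 0.711 of the group's range, above Dixon's critical value of 0.568 for 7 arrays. Of 14 sets of values, 7 genes in both groups, this was the only one so marked, and chance marks about 1 in 20. The same array had the choroid plexus markers at 10.3 and the meningeal markers at 8.21, and their part in the Ntrk3 value was not tested. Ntf3 on MSC replicate 4 came close, at 0.555 of the range.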

How the results depend on the processing

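Over all alternatives, leave-one-out included, 0 of the 7 genes passed the threshold, and of 186 recomputed differences 178 kept their sign and 8 turned it. Ngfr turned to 0.0091 after repeated quantile normalization, 0.0068 after median centring and 0.0056 with MSC replicate 7 counted as vehicle. In that last setting Sort1 turned to -0.0069. Within replicates 6 and 7 only, Ntf3 was at -0.034 and Ntrk2 at -0.077. With 1 array left out, Ngfr ran from -0.021 to 2.4e-05 and Sort1 from -0.023 to 0.063, and the other 5 genes kept their sign. The causes were not tested. Without dim probe sets the ligand median was -0.048 and the receptor median exceeded it by 0.168; only Ntf4 of the ligands is left, and without Ngfr the receptor median moved from 0.074 to 0.12. With 1 array left out, the receptor median minus the ligand median ran from -0.043 to 0.065. Without the 2 arrays farthest from the median 1 pair of genes, Ntf3 and Sort1, passed the adjustment instead of 0. With the replicate block Ntrk3 differed by 0.23 with an unadjusted limma p of 0.070 and 0 genes passed. Same-numbered arrays correlated from -0.31 to 0.27 in their deviations. Low correlations of whole arrays cannot exclude a paired design, so whether the numbers pair the arrays is not known. Each gene has 1 probe set, so averaging over probe sets changes nothing. Signal below the negative controls limits what can be said of Bdnf, Ntf3, Ntf4 and Ngfr.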

Other observations

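The SDs of the MSC and vehicle arrays were compared for these 7 genes only, and no background over all genes was computed. The ratio of the SDs, MSC over vehicle, ran from 0.894 for Ntrk3 to 3.23 for Ntf3, and it was 1.79 for Ntrk2 and 1.73 for Ntf4. Bdnf, Ntf3, Ntf4 and Ngfr lay below the negative control median, so their ratios concern array values not shown to be above background. Single arrays set both ends. Without vehicle replicate 2 the ratio for Ntrk3 was 3.17, without MSC replicate 4 that for Ntf3 was 1.54, and without MSC replicate 3 that for Bdnf was 0.936. The difference in spread was not tested. MSC replicate 5 held the highest value of all 14 arrays for Ntrk2 (14.63), Sort1 (15.65) and Ngfr (5.53) and the lowest for Ntf4 (5.87).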
